A study of Mus musculus with 16 samples.

Results

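The genes described here are 9 transcription regulators that set or restrain effector fates of CD4 T cells: Tbx21, Gata3, Bcl6, Maf, Irf4, Prdm1, Bhlhe40, Id2 and Id3. They were taken by symbol. All 9 were listed in both deposited tables, among 11171 genes of conventional T cells, 11067 genes of regulatory T cells and 10774 genes shared by the tables. RNA-seq had been done on CD4+ FOXP3- conventional T cells (Tcon) and CD4+ FOXP3+ regulatory T cells (Treg) from spleen and lymph node. The mice were B6.Cg-Foxp3tm2Tch/J (FOXP3-IRES-GFP) reporter animals of genotype WT, and all 4 groups carried this reporter. Mice received vehicle or 50 mg/kg venetoclax, an inhibitor of the anti-apoptotic protein BCL-2, in both arms for 14 days. Each of the 4 groups (Tcon vehicle, Tcon venetoclax, Treg vehicle, Treg venetoclax) had 4 libraries labelled as biological replicates 1 to 4. The labels name no age, sex or dosing route and do not say how many animals stand behind a library, so p-values measure the spread between these libraries. The comparison asks how BCL-2 inhibition bears on each T cell subset.

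Activated CD4 T cells and Tregs take up specialised programs under a small set of regulators. T-bet (Tbx21) directs the Th1 program, GATA3 (Gata3) the Th2 program and BCL6 (Bcl6) the follicular helper program. IRF4 (Irf4) and BLIMP-1 (Prdm1) mark and sustain effector Tregs, c-MAF (Maf) supports interleukin-10 production and several helper fates, and BLIMP-1 and BCL6 repress each other. BHLHE40 (Bhlhe40) is an activation-responsive repressor that limits interleukin-10. ID2 and ID3 bind E proteins and keep them off DNA.

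The stretches upstream of the transcription start are shown for the genes that rose in Treg under venetoclax and have an entry in the RefSeq promoter table, Prdm1, Irf4 and Tbx21, and for Bcl6, the counterpart of Prdm1. Of the 9 genes, 7 had an entry, Bcl6 with 2 start sites, giving 8 entries. Maf and Bhlhe40 were not matched. Each run holds the 250 bases before the start, read 5′ to 3′ on the gene's strand, in build GRCm38.p6. Capitals mark matches, on either strand, to TTCNNNGAA (STAT and BCL6 core), TGANTCA (AP-1), GAAAGT (core shared by PRDM1 and IRF proteins), AGGTGTGA (T-box), TGCTGA (part of the MAF site), AGATAA (site of GATA proteins) or the kappa B site.
Prdm1 (chr10:44458749-44458998, minus strand): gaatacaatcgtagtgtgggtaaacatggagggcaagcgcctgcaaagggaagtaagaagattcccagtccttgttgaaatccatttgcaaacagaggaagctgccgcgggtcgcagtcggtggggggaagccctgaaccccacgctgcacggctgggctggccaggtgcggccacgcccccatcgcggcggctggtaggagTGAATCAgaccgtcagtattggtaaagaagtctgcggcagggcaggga
Irf4 (chr13:30748983-30749232, plus strand): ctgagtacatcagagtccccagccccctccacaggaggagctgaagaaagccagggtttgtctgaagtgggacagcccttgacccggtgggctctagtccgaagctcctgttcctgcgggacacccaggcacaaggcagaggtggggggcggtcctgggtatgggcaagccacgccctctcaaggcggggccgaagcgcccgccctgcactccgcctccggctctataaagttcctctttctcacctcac
Tbx21 (chr11:97115332-97115581, minus strand): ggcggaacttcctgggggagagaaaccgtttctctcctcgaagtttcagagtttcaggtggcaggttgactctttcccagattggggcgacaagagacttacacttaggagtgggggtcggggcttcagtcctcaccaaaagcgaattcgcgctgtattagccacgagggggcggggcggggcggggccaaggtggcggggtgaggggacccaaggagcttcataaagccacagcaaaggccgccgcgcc
Bcl6 (chr16:23981284-23981533, minus strand, the start site inside the gene): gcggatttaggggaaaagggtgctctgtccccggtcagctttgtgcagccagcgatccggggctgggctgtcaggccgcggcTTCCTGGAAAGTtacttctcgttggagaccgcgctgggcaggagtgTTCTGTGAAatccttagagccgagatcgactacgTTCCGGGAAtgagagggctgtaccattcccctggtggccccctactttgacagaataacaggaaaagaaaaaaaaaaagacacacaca
The printed Prdm1 stretch also belongs to a start site inside the gene, which spans chr10:44437174-44528558 in RefSeq. It held 1 match to the AP-1 pattern, reading TGAATCA and starting 48 bases before that start site. The same pattern occurred in 6.87% of 27025 mouse promoter stretches of that length. The printed Bcl6 stretch held 3 TTCNNNGAA matches, at -168, -122 and -88. At least 1 match was held by 7.18% of promoters, and the share with 3 was not counted. The bases after this Bcl6 start were not found in a GENCODE transcript of the gene, while those of all other entries were. The same stretch also held a GAAAGT match at -162 that overlaps the first TTCNNNGAA match (12.3% of promoters). The other Bcl6 entry (chr16:23988853-23989102) held 1 TTCNNNGAA match at -118. The Irf4 and Tbx21 stretches held none of these patterns. The palindromic E-box CACGTG, a form BHLHE40 binds, was searched without capitals and stood once in that other Bcl6 entry, at -60 (6.05% of promoters).

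The libraries held 22982210 to 24960570 reads in Tcon and 21335006 to 25027038 in Treg, recovered from the authors' normalized values. Foxp3, the regulator that defines Treg, ranged from 27.3 to 32.4 CPM (reads scaled to the library total) in Tcon and from 747.0 to 920.3 CPM in Treg, and Cd4 from 729.6 to 1141 CPM in all libraries. The Y-linked gene Ddx3y was at 0 to 0.0404 CPM in vehicle replicates 1, 3 and 4 and at 0.0414 to 0.0426 CPM in venetoclax replicate 4, in both subsets. It reached 226.6 to 284.5 CPM in replicates 2 of both arms, and lay between, at 62.3 to 127.0 CPM, in venetoclax replicates 1 and 3, so the arms also differed in Y-linked signal. Summed over the listed markers, B cell genes (3 of 7 measured) were at 15.5 to 20.6 CPM in vehicle Treg and 14.6 to 21.1 CPM in venetoclax Treg. Macrophage and monocyte genes (4 of 7 measured) were at 5.93 to 8.99 and 4.83 to 8.60 CPM, NK cell genes (2 of 6 measured) at 8.95 to 12.1 and 7.47 to 10.5 CPM, and the 1 plasma cell gene measured of 5 at 0.646 to 12.3 and 1.40 to 8.52 CPM. These ranges overlapped between arms in each of the 4 lists. So did those of CD8 T cell genes (2 of 2 measured), at 14.5 to 17.6 and 12.0 to 15.6 CPM. Erythroid genes (3 of 5 measured) overlapped too, at 1.24 to 13.3 and 0.742 to 36.0 CPM. The median log2 changes of these lists in Treg were -0.80 and 1.48, with 0 genes called in either. Dendritic cell and neutrophil genes (1 measured each) reached at most 2.80 and 3.06 CPM in Treg. Stromal and endothelial genes (3 of 5 measured) were at 206.7 to 250.8 CPM in vehicle Treg and 168.6 to 191.0 CPM in venetoclax Treg, without overlap. Their median log2 change in Treg was 0.28, with 0 called higher and 1 lower (8.81% of all genes), so the sum did not follow the list as a whole. The part of these genes in the Treg results was not tested.

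In Treg, venetoclax was accompanied by higher transcript levels of Maf, Irf4, Prdm1 and Tbx21, by 1.45-fold to 1.88-fold. None of the 9 genes was called lower. The count was 4 of 9 higher by limma on log2(normalized count + 1) with Benjamini-Hochberg adjustment over all genes, at an adjusted p below 0.05. Over all 11067 genes the same call was made for 10.7% in the upward and 8.81% in the downward direction. Upper quartile scaling, which moved the median log2 change of all genes from 0.0048 to -0.025, turned the split of calls from 1189 higher and 975 lower to 968 higher and 1350 lower. The same 4 genes passed with edgeR (10.2% of all genes higher), with DESeq2 (11.4%) and in the authors' deposited table (11.2%).

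Maf, the factor tied to interleukin-10 and several helper fates, had the largest change of the 9 in Treg. Its normalized counts were 3222, 3285, 2210 and 2931 in vehicle replicates 1 to 4. Under venetoclax they were 5571, 5431, 5170 and 5499. Every venetoclax library stood above every vehicle library, as for 12.0% of all genes in Treg, and the venetoclax libraries lay close together, with an SD of 174.6 on a mean of 5418 (n = 4) against 492.8 on 2912 in vehicle. The log2 change was 0.91 (SE 0.10, limma adjusted p = 0.000119), a 1.88-fold difference. The Maf locus (chr8:115703253-115706894 in RefSeq, minus strand) is longer in GENCODE (chr8:115682942-115707794), where it shares 2156 bases with the antisense gene Gm15655. Reads of overlapping genes cannot be told apart where counting by strand is not stated, which also holds for Bcl6 (114 bases with Gm37419) and Bhlhe40 (306 bases with 0610040F04Rik). Gata3 shares 6500 bases with 9230102O04Rik on its own strand and 1614 and 2670 bases with Gm13256 and 4930412O13Rik on the other.

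Irf4, which cooperates with BATF and AP-1 proteins in activated T cells, followed the same order. Vehicle Treg libraries had 2335, 2179, 1952 and 2497 normalized counts. Venetoclax Treg libraries had 3515, 2992, 3439 and 3701. The groups did not overlap, and the log2 change was 0.61 (SE 0.08, limma adjusted p = 0.000313).

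Prdm1, the gene of the repressor BLIMP-1, stood at 663.7, 690.8, 535.5 and 752.5 normalized counts in vehicle Treg. It stood at 1012, 993.1, 790.4 and 1148 in venetoclax Treg. Replicate 3 was the lowest of each arm, and the lowest venetoclax library was still above the highest vehicle library. The log2 change was 0.58 (SE 0.11, limma adjusted p = 0.00431), or 1.49-fold.

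Tbx21, the Th1 regulator, had the lowest counts of the 9 in Treg, at 111.9, 94.7, 84.7 and 113.1 normalized counts in vehicle. The venetoclax values were 154.6, 112.9, 132.4 and 195.9. Replicates 1, 3 and 4 were above all vehicle libraries, while replicate 2 lay just under the highest of them. The log2 change of 0.54 (SE 0.17, limma adjusted p = 0.0383) passed with all 8 libraries. It missed the threshold when vehicle replicate 1, 2 or 3 or venetoclax replicate 1, 3 or 4 was left out, with limma adjusted p from 0.0511 to 0.109 in those 6 fits.

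**Figure D1:**
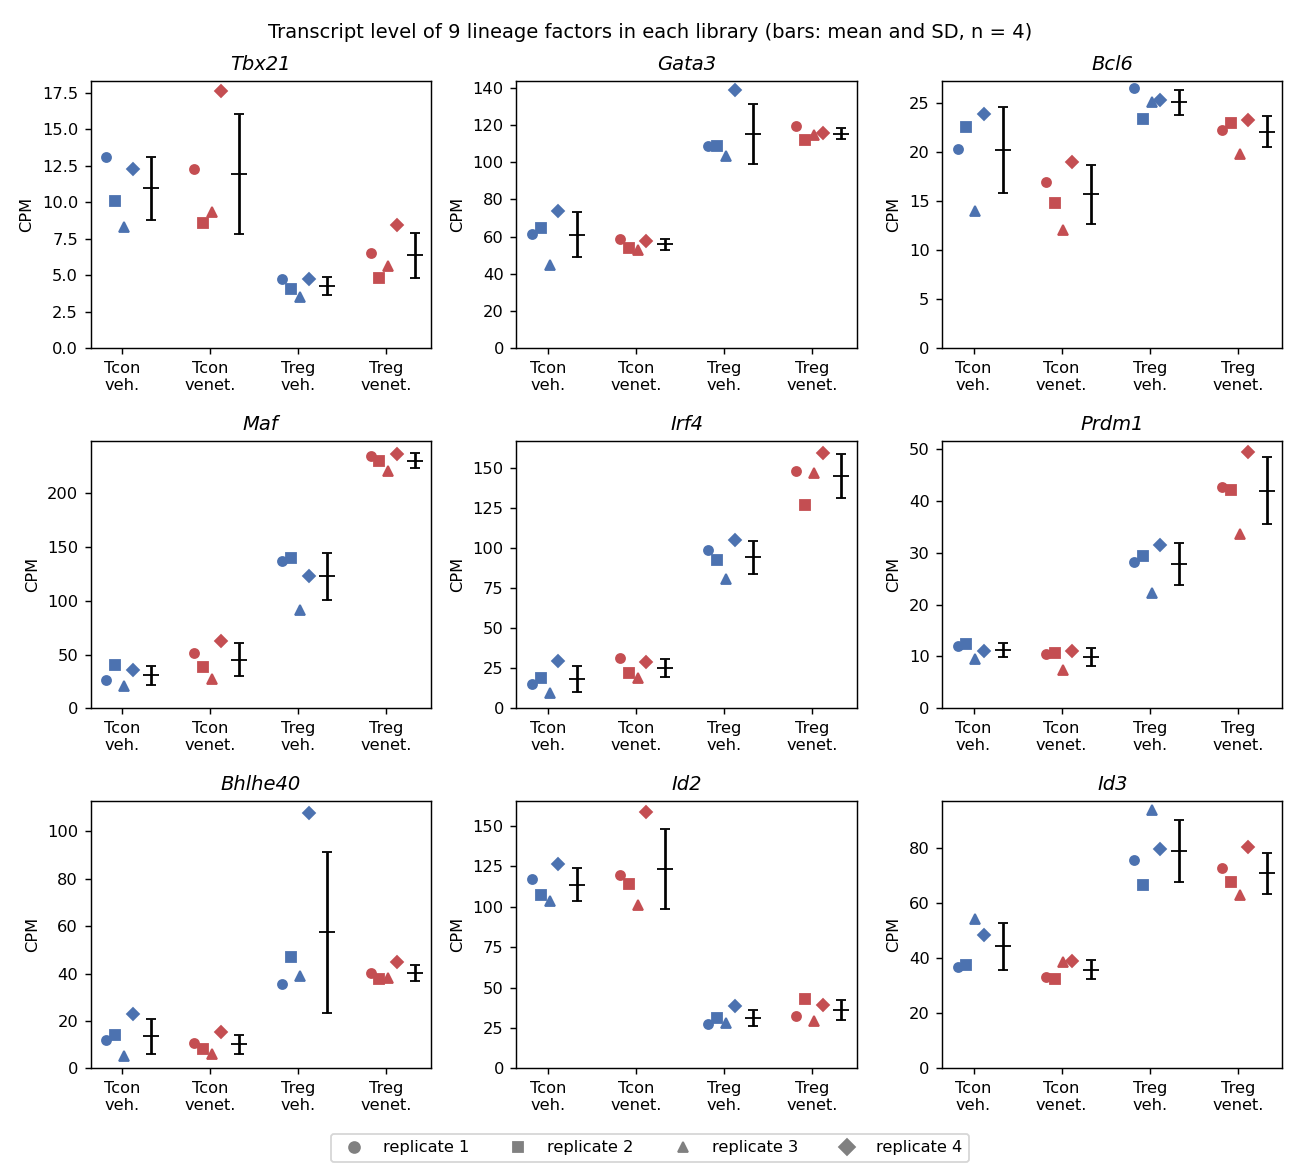
Transcript level of each of the 9 genes in every library, in CPM on axes that start at 0. Blue points are vehicle and red points venetoclax libraries, marker shapes give the replicate number, and the black cross beside each group is its mean with SD (n = 4). Venetoclax Treg libraries stand above vehicle Treg libraries for Maf, Irf4 and Prdm1, and Tbx21 and Id2 are lower in Treg than in Tcon.

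The remaining 5 genes did not pass in Treg. Bcl6, the follicular helper regulator, had 625.8, 549.3, 605.6 and 600.5 normalized counts in vehicle. In venetoclax Treg it had 527.2, 541.3, 462.8 and 541.5. All 4 venetoclax libraries were below all 4 vehicle libraries, an order that 10.7% of all genes showed in that direction. The log2 change was -0.20 (SE 0.07, 95% interval -0.36 to -0.04, limma adjusted p = 0.0727). With upper quartile scaling it passed, at -0.23 and a limma adjusted p of 0.0415, and it passed without vehicle replicate 2, at -0.24 and a limma adjusted p of 0.0451. It was -0.15 (limma adjusted p = 0.201) without venetoclax replicate 3, -0.14 (0.321) without both replicates 3, -0.13 (0.408) without venetoclax replicates 1 and 3 and -0.14 (0.254) with the Y-linked signal as a covariate.

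Bhlhe40, the activation-responsive repressor, varied most between vehicle libraries. Its vehicle Treg values were 838.0, 1107, 943.4 and 2560 normalized counts. The venetoclax values were 956.4, 890.4, 894.7 and 1044. Vehicle replicate 4 stood apart, and the log2 change of -0.37 had a 95% interval of -0.91 to 0.16 (limma adjusted p = 0.316). Without that library the change was -0.02, and leaving out any other library gave -0.35 to -0.56. On the recovered reads edgeR and DESeq2 gave -0.53 each, and the authors' deposited table lists -0.06. The adjusted p was nevertheless close, at 0.349 with DESeq2 and 0.370 in the authors' table. The deposited fold change therefore cannot be read on the scale of the others.

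Gata3, the Th2 regulator that Tregs also use, had 2569, 2554, 2495 and 3306 normalized counts in vehicle Treg and 2835, 2641, 2688 and 2683 in venetoclax Treg. The arms overlapped, with vehicle replicate 4 above the rest. Its log2 change was -0.00, with a 95% interval of -0.17 to 0.16. The sign depended on single libraries and on the Y-linked covariate, and with 1 library left out the value lay between -0.04 and 0.09. Of the E protein inhibitors, Id2 had a log2 change of 0.18 (95% interval -0.08 to 0.45, limma adjusted p = 0.325) and Id3 of -0.16 (95% interval -0.38 to 0.05, limma adjusted p = 0.258).

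In Tcon, 0 of the 9 genes passed without a replicate term, beside 6.91% of all genes in either direction. The count at an unadjusted p below 0.05 was 0 with limma, 2 with edgeR (Bcl6, Maf) and 3 with DESeq2 (Bcl6, Id3, Maf), and 0 passed after adjustment with either tool (7.04% and 12.2% of all genes) or in the authors' deposited table (11.3%). Deviations from group means of same-numbered vehicle and venetoclax Tcon libraries correlated at 0.119, 0.555, 0.614 and 0.272 for numbers 1 to 4. Venetoclax replicate 1 correlated more with vehicle replicates 2 (0.292) and 4 (0.223) than with vehicle replicate 1. The labels state no pairing across arms, so a block by number rests on a pairing read from these same data. Ddx3y was alike between Tcon arms for numbers 2 and 4. It was unlike for numbers 1 and 3, at 0 CPM in vehicle and at 62.3 and 127.0 CPM in venetoclax. With the replicate number as a block 4 of the 9 passed, beside 16.8% of all genes. Of these 4, Maf and Irf4 rose (8.92% of all genes) and Bcl6 and Id3 fell (7.90%) under venetoclax.

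Maf in Tcon had 621.5, 932.6, 520.3 and 826.3 normalized counts under vehicle. Under venetoclax it had 1215, 905.5, 656.3 and 1452. It was higher in 3 of 4 numbered pairs, with a log2 change of 0.52 (SE 0.25 and limma adjusted p = 0.244 without the block, SE 0.13 and limma adjusted p = 0.0224 with it). Without the block it was 0.34 when venetoclax replicate 4, the highest library, was left out, and up to 0.73 without venetoclax replicate 3.

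Irf4 had 354.0, 426.8, 242.8 and 682.3 normalized counts in vehicle Tcon and 735.8, 521.6, 447.6 and 667.6 in venetoclax Tcon. It too was higher in 3 of 4 pairs, the exception being replicate 4, with a log2 change of 0.55 (limma adjusted p = 0.267 without and 0.0283 with the block). Without the block it was 0.31 when vehicle replicate 3, the lowest library, was left out, and 0.81 without vehicle replicate 4.

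Bcl6 in Tcon had 477.9, 517.8, 350.4 and 556.1 normalized counts under vehicle. Under venetoclax it had 399.0, 346.1, 287.3 and 440.4. Each venetoclax library was below the vehicle library of its number, while the groups overlapped. The log2 change was -0.37 (limma adjusted p = 0.221 without the block and 0.0155 with it). Leaving out vehicle replicate 3, the lowest of its group, gave -0.50 and a limma adjusted p of 0.0344 without the block, and leaving out any other library gave -0.25 to -0.46.

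Id3, an E protein inhibitor, had 865.4, 858.6, 1363 and 1123 normalized counts in vehicle Tcon and 778.3, 759.5, 930.4 and 899.7 in venetoclax Tcon. It was lower in 4 of 4 pairs, with a log2 change of -0.30 (limma adjusted p = 0.255 without the block and 0.0223 with it). Without the block it was -0.17 (limma adjusted p = 0.358) when vehicle replicate 3, the highest library, was left out. With the Y-linked signal as a covariate and no block, the log2 change of Id3 was -0.17 in Tcon and -0.03 in Treg. The same covariate gave log2 changes of 0.86 for Maf, 0.67 for Irf4, 0.63 for Prdm1 and 0.71 for Tbx21 in Treg, each still past the threshold.

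The other members did not pass in Tcon in either fit. Prdm1 had 284.2, 287.9, 236.4 and 255.2 normalized counts under vehicle and 248.1, 248.1, 176.4 and 257.8 under venetoclax, a log2 change of -0.20 with a 95% interval of -0.50 to 0.10. Tbx21 ranged from 209.0 to 308.8 under vehicle and from 201.1 to 406.9 under venetoclax, the top value in replicate 4. The intervals of the log2 change were -0.40 to 0.54 for Tbx21, -0.37 to 0.13 for Gata3, -0.17 to 0.35 for Id2 and -1.19 to 0.54 for Bhlhe40. Bhlhe40 had the widest, with vehicle Tcon libraries between 125.6 and 532.3 normalized counts.

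**Figure D2:**
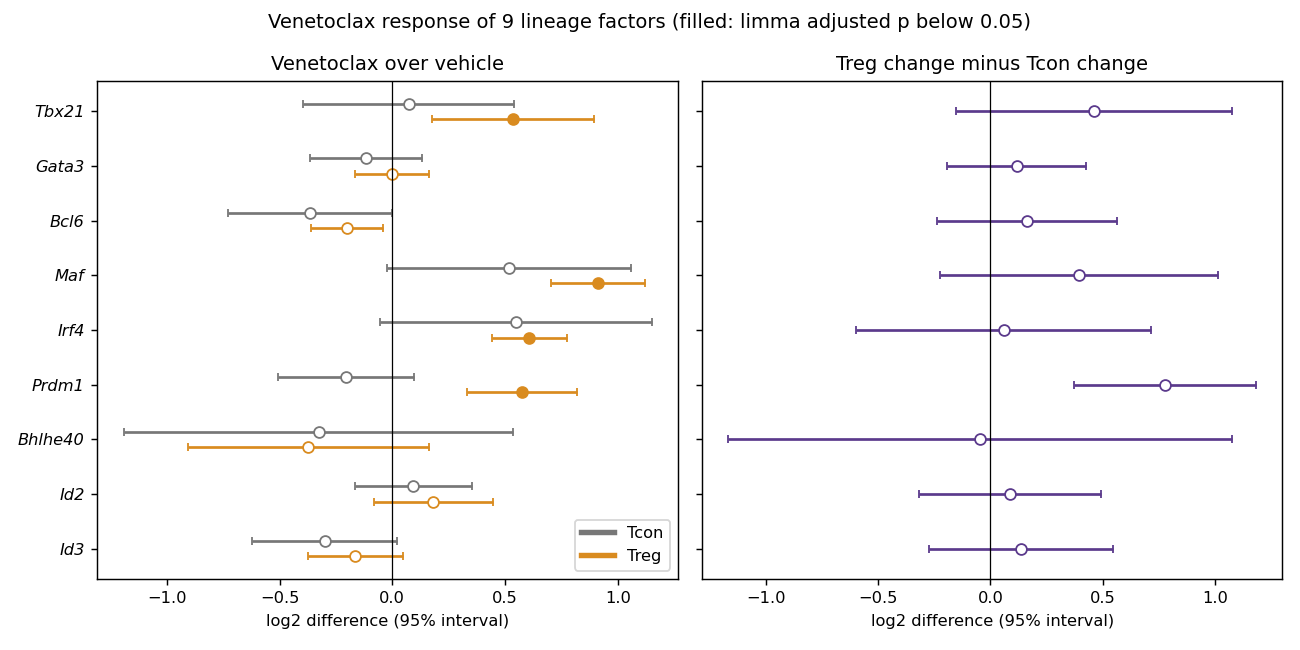
Log2 difference of each gene with its 95% interval from limma, venetoclax over vehicle in Tcon (grey) and Treg (orange) on the left and the Treg change minus the Tcon change on the right. Filled points passed an adjusted p of 0.05 without a replicate block, which in Treg are Tbx21, Maf, Irf4 and Prdm1, and none is filled for Tcon or for the difference of changes.

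The changes of the subsets were compared directly, as the Treg change minus the Tcon change over 16 libraries. Prdm1 showed the largest difference of the 9, at 0.78 on the log2 scale (SE 0.19, 95% interval 0.37 to 1.18). It had a limma adjusted p of 0.0579 without a block, and of 0.00271 with the replicate code shared by the Tcon and Treg libraries as a block. On the recovered reads it passed with edgeR (adjusted p = 0.0490, 1.31% of genes called) and DESeq2 (adjusted p = 0.00599, 2.74% called). With 1 code left out, limma gave an adjusted p between 0.0377 and 0.195, and 0.249 without venetoclax replicates 1 and 3. None of the 9 passed in limma without the block, 1 did so at an unadjusted p below 0.05, and 1.30% of the 10774 shared genes were called (3.61% with the block).

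The difference of changes was 0.46 for Tbx21 (95% interval -0.15 to 1.08, limma adjusted p = 0.673, and 0.0625 with the block) and 0.39 for Maf (95% interval -0.22 to 1.01, limma adjusted p = 0.754). For Irf4 it was 0.06, with an interval of -0.60 to 0.72. The calls of Maf and Irf4 in Treg, missed in Tcon without a block, therefore did not amount to a tested difference between the subsets. Bcl6, Gata3, Id2 and Id3 differed by 0.16, 0.12, 0.09 and 0.13, and Bhlhe40 by -0.05, all within intervals that include 0.

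The ratio of Treg to Tcon CPM within each replicate code was set beside this test. For Prdm1 the ratios were 2.33, 2.35, 2.36 and 2.89 in vehicle codes 1 to 4 and 4.05, 3.98, 4.59 and 4.45 in venetoclax codes 1 to 4. All venetoclax ratios were above all vehicle ratios, which 4.60% of genes showed. Tbx21 was the only other of the 9 with separated ratios, from 0.362 to 0.422 under vehicle and from 0.480 to 0.607 under venetoclax. For the other 7 the ratios of the arms overlapped.

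**Figure D3:**
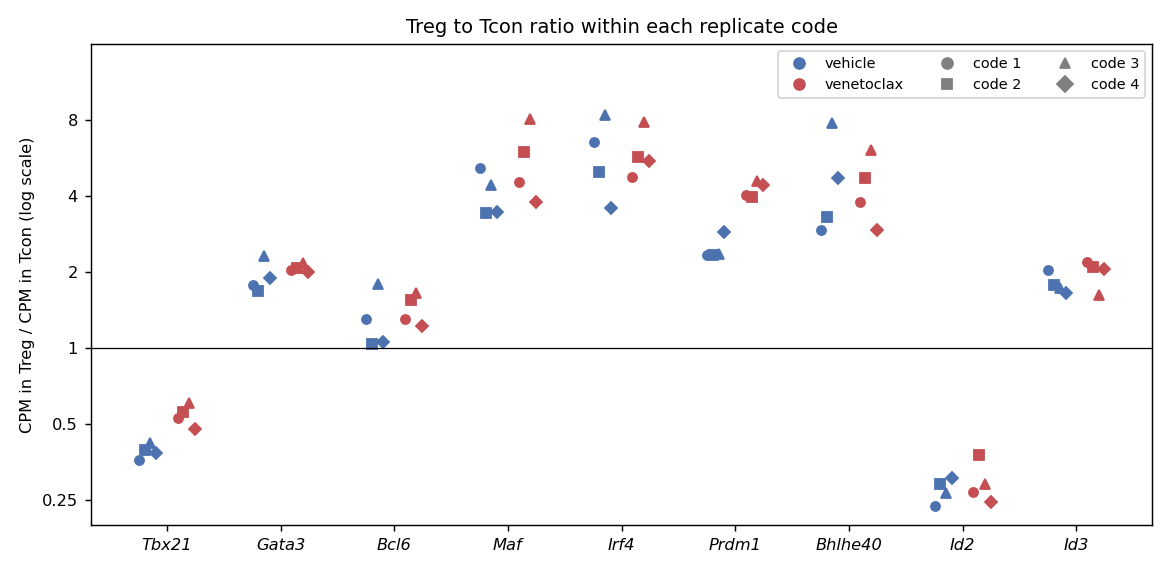
Ratio of CPM in Treg to CPM in Tcon for each gene within each replicate code, on a log axis, with vehicle in blue and venetoclax in red. The line at 1 marks equal levels, and the Prdm1 ratios of the venetoclax codes (3.98 to 4.59) lie above those of the vehicle codes (2.33 to 2.89).

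Levels of the 9 genes also differed between Treg and Tcon. Since each table was normalized on its own, Treg and Tcon levels were set side by side in CPM without a test. In vehicle, 6 of the 9 genes were higher in every Treg library than in any Tcon library, 2 were lower, and Bcl6 overlapped. The background over 10774 genes was 24.5% higher and 12.0% lower. In venetoclax all 9 were apart, 7 higher and 2 lower in Treg, beside 30.2% and 18.3% of genes.

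Irf4 had the highest ratio of vehicle means, with 94.4 ± 10.3 CPM in Treg and 18.2 ± 8.29 CPM in Tcon (SD, n = 4), a ratio of 5.20. Bhlhe40 followed at 4.23, with 57.4 ± 33.9 and 13.6 ± 7.36 CPM, its Treg mean including the high replicate 4. Maf was 3.99 times as high in Treg, at 122.9 ± 22.0 against 30.8 ± 8.91 CPM. Prdm1 was 2.48 times as high, at 27.9 ± 4.03 against 11.3 ± 1.38 CPM.

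Gata3 and Id3 were 1.88 and 1.78 times as high in vehicle Treg as in vehicle Tcon, at 115.1 ± 16.2 and 78.8 ± 11.4 CPM. Tbx21 and Id2 went the other way. Tbx21 averaged 11.0 ± 2.18 CPM in vehicle Tcon and 4.26 ± 0.604 CPM in vehicle Treg, and Id2 averaged 113.5 ± 10.2 and 31.3 ± 5.11 CPM.

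In the order of the 4 group means, Maf, Irf4 and Prdm1 had venetoclax Treg first, apart from vehicle Treg, which was apart from both Tcon groups. The Tcon arms overlapped in CPM for all 9 genes, and the Treg arms also overlapped for Gata3, Bhlhe40, Id2 and Id3. Tbx21 ran from venetoclax Tcon (11.9 CPM) and vehicle Tcon (11.0 CPM) to venetoclax Treg (6.35 CPM), each overlapping the next. Vehicle Treg (4.26 CPM) stood apart below them in CPM, by a narrow gap (at most 4.75, against 4.79 or more in venetoclax Treg). In normalized counts these Treg arms overlapped, with 113.1 the highest vehicle and 112.9 the lowest venetoclax value. For Bcl6, vehicle Treg stood apart above venetoclax Treg, which overlapped vehicle Tcon.

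Per length of exon (RPKM, the CPM of a gene divided by its exon length in kilobases), Id2 was first in vehicle Tcon at 46.5 ± 4.17, before Id3 at 24.7 ± 4.78 and Gata3 at 15.3 ± 3.03. Tbx21, Irf4, Bcl6, Bhlhe40 and Prdm1 were between 2.02 (Prdm1) and 4.41 (Tbx21) RPKM. In vehicle Treg the order was Id3 at 44.0 ± 6.34, Gata3 at 28.9 ± 4.07 and Irf4 at 19.3 ± 2.10 RPKM, with Tbx21 last at 1.71 ± 0.243. Id2 was thus above Id3 in Tcon and Id3 above Id2 in Treg. In venetoclax Treg, the libraries of Irf4 (29.6 ± 2.77) and Gata3 (29.0 ± 0.783) overlapped. Exon lengths came from GENCODE and need not be those behind the deposited counts. Maf has no place in this order, since its GENCODE exons cover 8241 bases and its whole RefSeq span 3642.

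The genes whose pattern over the 16 libraries was most like each regulator's were found among 9141 genes, by the root mean square difference of centred log2(CPM + 1). Prdm1 was nearest to Gdpd5 (0.14) and Kif5c (0.15). Gdpd5 averaged 8.88 and 8.64 CPM in vehicle and venetoclax Tcon and 20.3 and 30.7 CPM in vehicle and venetoclax Treg, the order of Prdm1. Maf was nearest to Eea1 (0.18) and Atp2b4 (0.18), and Irf4 to Endod1 (0.19) and Zdhhc2 (0.20). By group mean, these 4 genes were higher in Treg than in Tcon and higher under venetoclax than under vehicle in each subset.

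Gata3 had the closest neighbours, Reps1 (0.07) and Tnip1 (0.08). Bcl6 was nearest to Dag1 and Phc1 (0.12 each), Id3 to Eva1b (0.15) and Camkmt (0.16), Id2 to Slc16a10 (0.18) and Lair1 (0.20), and Tbx21 to Samd3 (0.20) and Mfsd6 (0.24). Bhlhe40 had the most distant ones, Nfil3 (0.34) and Pim1 (0.36). The libraries share subset, arm and replicate code, which all enter this measure.

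Genes of the programs around these regulators were described by lists of related genes. Of 17 measured genes of the effector Treg list, 13 rose and 0 fell in Treg, with a median log2 change of 0.54 against 0.0048 for all genes. The counts of this and the following lists in Treg stand beside 10.7% of all genes higher and 8.81% lower. All lists were chosen with earlier results of these data known, so an excess over these shares is no independent support. Pdcd1, the gene of the checkpoint receptor PD-1, rose from a mean of 1304 to 2472 normalized counts (log2 change 0.92, SE 0.07). The alarmin receptor gene Il1rl1 rose by 1.23 (SE 0.17), the integrin gene Itgae by 0.73 (SE 0.09) and the costimulator gene Icos by 0.50 (SE 0.07). Il10, a gene that c-MAF and BLIMP-1 support, did not pass, at 155.1 and 179.0 mean normalized counts.

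**Figure D4:**
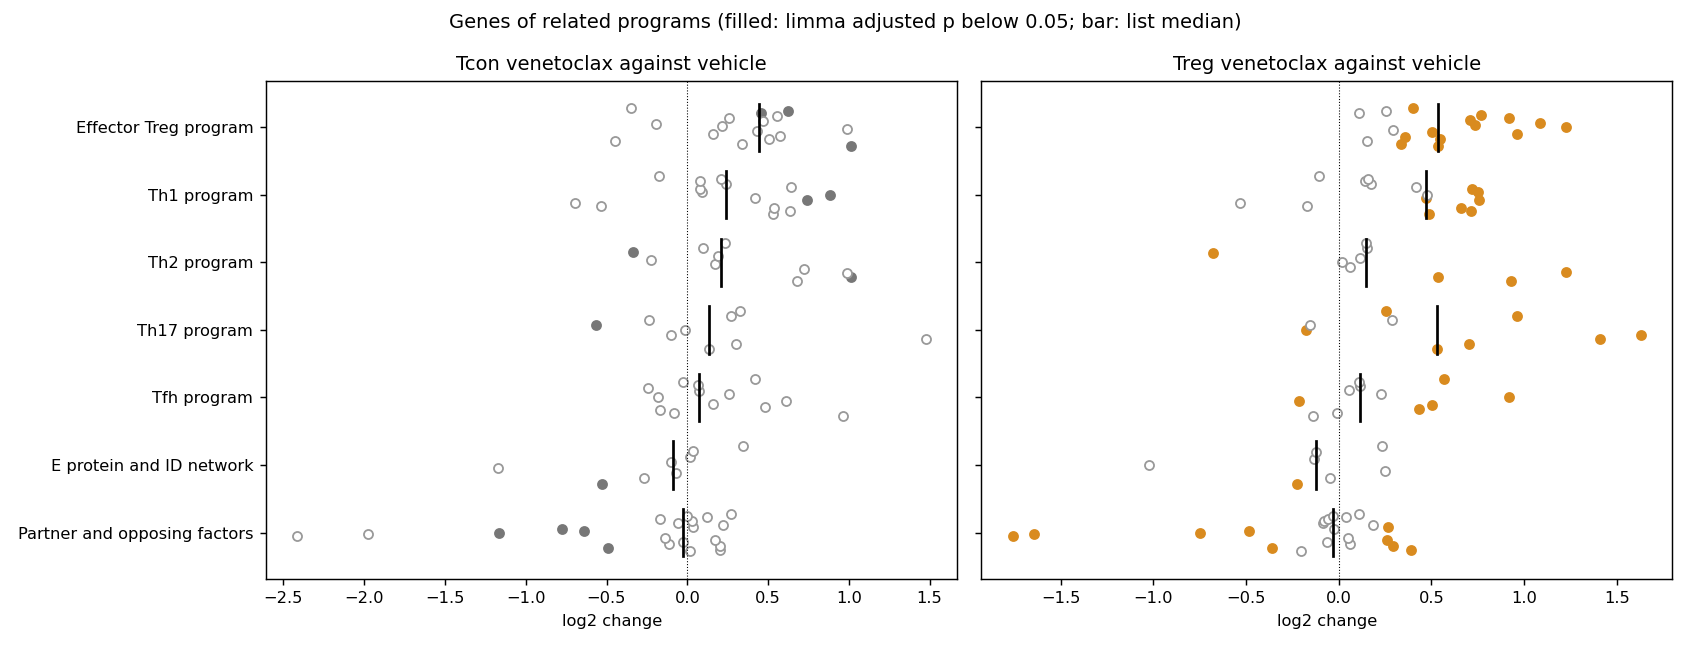
Log2 change under venetoclax of every measured gene of 7 lists in Tcon (left) and Treg (right). Filled points passed a limma adjusted p of 0.05 without a block, and black bars are list medians, which in Treg are highest for the effector Treg (0.54) and Th17 (0.53) lists.

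In the Th1 list, T-bet's program, 7 of 15 measured genes rose and 0 fell in Treg, with a median of 0.47 against the same 0.0048. Ifngr1, a chain of the interferon-gamma receptor, rose by 0.76 (SE 0.08), the interleukin-18 receptor gene Il18r1 by 0.75 (SE 0.07), the chemokine receptor gene Cxcr3 by 0.66 (SE 0.11) and Il12rb1 by 0.47 (SE 0.08). The cytokine gene Ifng went from 178.9 to 120.4 mean normalized counts, a log2 change of -0.54 with a limma adjusted p of 0.0918. Il18r1 was the 1 gene of the list with a tested difference between subsets, larger in Treg by 0.66 (SE 0.10, limma adjusted p = 0.00396). With the replicate code as a block 2 Th1 genes passed that test, which 1.30% of all genes passed without and 3.61% with it.

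In the Th17 list 6 of 9 rose and 1 fell in Treg (median 0.53). The chemokine receptor gene Ccr6 rose by 0.70 (SE 0.08), the ligand-activated factor gene Ahr by 0.53 (SE 0.08) and Stat3 by 0.25 (SE 0.05). In the Th2 list 3 of 9 rose and 1 fell (median 0.15). The risers Il1rl1, Ccr4 (0.93, SE 0.08) and Ccr8 (0.54, SE 0.12) are receptors also carried by effector Tregs, and the gene that fell was Satb1, a chromatin organiser (-0.68, SE 0.06).

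In the follicular helper list, BCL6's program, 4 of 11 genes rose and 1 fell in Treg (median 0.12). Cxcr5, the follicle-homing receptor, rose by 0.44 (SE 0.10), beside Pdcd1 and Icos, and the TCF family gene Lef1 fell (-0.21, SE 0.06). In the list of E proteins and their network 0 of 7 rose and 1 fell, the T-lineage factor gene Bcl11b (-0.23, SE 0.07). Tcf3 and Tcf12, the E protein genes whose products ID proteins hold back, had log2 changes of -0.12 and -0.14 and limma adjusted p of 0.0750 and 0.0515.

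Among 21 measured partner and opposing factors 4 rose and 5 fell in Treg (median -0.03). Batf, whose product binds DNA with IRF4, rose (0.39, SE 0.08), as did Irf2 (0.26, SE 0.05). The AP-1 gene Jund fell (-0.75, SE 0.11), and so did Klf2 (-0.49, SE 0.09) and Foxo1 (-0.36, SE 0.06), regulators of the quiescent, recirculating state. The other AP-1 genes of the list fell by more. Junb had a log2 change of -1.65 (SE 0.35, limma adjusted p = 0.0059) and Jun of -1.76 (SE 0.47, limma adjusted p = 0.0197). Bach2, which restrains effector differentiation, had a log2 change of -0.20 (limma adjusted p = 0.0524). In bulk RNA, a larger share of cells in one state and more transcript per cell cannot be told apart. Il10, Ifng, Tcf3, Tcf12, Batf, Junb, Jun and Bach2 were picked for their known ties to the 9 regulators after values were seen.

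In Tcon, where 3.92% of all genes rose and 2.99% fell without the replicate block (8.92% and 7.90% with it) and the median log2 change of all genes was 0.0022, 3 of 16 effector Treg genes rose (Ccr8 by 1.01, Tnfrsf4 by 0.62 and Tnfrsf18 by 0.46), with a list median of 0.44, and 5 rose and 1 fell with the replicate block. Effector Treg genes had vehicle Tcon means from 6.48 normalized counts (Ebi3) to 1966 (Cd44). Klrg1 (7.28), Il1rl1 (8.24), Il10 (9.75) and Ccr8 (44.5) were among the low ones. The medians of this list in Tcon and Treg therefore rest on unlike levels. In the Th1 list 2 of 15 rose (Ifngr1 by 0.74 and Il12rb2 by 0.88), and 8 rose and 2 fell with the block. In the Th2 list Ccr8 rose and Satb1 fell (-0.33), with 3 and 1 under the block. In the Th17 list the cytokine receptor gene Il6st fell (-0.56) and 0 rose, with 2 rising under the block.

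None of 13 follicular helper genes passed in Tcon, with or without the block, the nearest being Lef1 (-0.18, limma adjusted p = 0.207) and Cxcr5 (0.48, limma adjusted p = 0.317). Of 8 genes of the E protein network 1 fell, Bcl11b (-0.53), and 2 fell with the block. Of the 21 partner and opposing factors 4 fell, Jund (-1.17), Myb (-0.78), Klf2 (-0.64) and Foxo1 (-0.49), and 7 fell with the block. Tnfrsf9, the gene of a costimulatory receptor, was the 1 effector Treg gene with a tested difference between subsets, larger in Treg by 0.75 (SE 0.15, limma adjusted p = 0.0214). With the replicate code as a block 2 were larger and 1 smaller in Treg. Icos, Pdcd1, Il1rl1 and Ccr8 each stand in 2 lists.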

How the data were processed

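The authors deposited 1 table per subset, with the values of its 8 libraries beside their own fold changes and p-values. Per the submitters' processing notes, HISAT2 and SAMtools were used with mm10. The counter, annotation, strand setting and versions are not stated in what was used here. The deposited library columns are a normalized signal, read counts divided by 1 size factor per library, since all values were whole multiples of 1 step (tolerance 0.01), which recovered the reads. Lines repeated for 1 gene (40 in the Tcon and 43 in the Treg table) were merged, and 18 symbols turned into dates in the Treg table were restored. The authors' log2 fold changes and adjusted p-values, as deposited, are quoted only where named.

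Venetoclax and vehicle were compared in each subset by limma 3.58.1 (R 4.3.3) with a mean trend on log2(normalized count + 1), without a filter, with Benjamini-Hochberg adjustment over all genes and a threshold of 0.05. Fold changes on this scale understate changes of low genes. The difference of the subsets' changes used the 10774 shared genes and 16 libraries. Alternatives were edgeR 4.0.16 and DESeq2 1.42.0 on the recovered read counts, other scaling, filters and pseudocounts, a replicate block, a Y-linked covariate and left-out libraries. On simulated data limma recovered 97% of genes changed by a log2 of 1 and 85% by 0.5 in Treg (11067 genes). It recovered 97% and 58% in Tcon (11171 genes), and 92% and 37% for the difference. Only genes above a minimum mean read count were changed there, and libraries were drawn without a shared replicate effect. These shares therefore need not hold for low genes or for libraries that deviate together.

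Deviations from group means of same-numbered libraries correlated at 0.119 to 0.614 between vehicle and venetoclax in Tcon. Between Tcon and Treg within an arm they correlated at 0.461 to 0.766. Libraries of unlike number reached 0.292 in the first check (vehicle 2 with venetoclax 1), above the value of number 1. In the second check they reached 0.31 (Tcon vehicle 3 with Treg vehicle 1). The numbers were taken to pair libraries in both, though across Tcon arms the values bear this out only in part. The Y-linked signal differed between Tcon arms for numbers 1 and 3. Tcon calls that needed the block therefore rest on a pairing that is not established. That pairing comes from the data; the labels give only the numbers. CPM was computed from recovered reads. Precision rests on the number of libraries and, for low genes, also on read counts, as for Tbx21 with 87 to 119 reads per vehicle Treg library.

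The 9 genes and all lists were chosen with earlier results of these data known. Named beside them are, per list, up to 4 genes past the threshold with the smallest p, or up to 2 where none passed (1 such gene is not reported here), and for each regulator the 2 genes nearest in pattern among those averaging 50 or more normalized counts in both tables. Promoters are from RefSeq (GRCm38.p6), as are gene coordinates unless GENCODE is named. Exon lengths (the union over transcripts) and gene overlaps are from GENCODE M21 on GRCm38, of which mm10 is another name.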

Additional observations from a re-analysis of the deposited data

Results flagged for a closer look

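Each of the 36 groups of 4 libraries formed by the 9 genes was examined for 1 library far from the other 3 in normalized counts. In 3 groups the gap of the extreme library to its nearest neighbour, divided by the range of the group, exceeded Dixon's 95% value, and chance alone flags about 1 group in 20. Gata3 was at 3306 normalized counts in Treg vehicle replicate 4, the highest of its group (gap over range 0.909). Bhlhe40 was at 2560 in the same library, again the highest (0.844). Prdm1 was at 176.4 in Tcon venetoclax replicate 3, the lowest of its group (0.881). Without that replicate code the difference between the subsets' changes of Prdm1 was 0.75 on the log2 scale with a limma adjusted p of 0.0377.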

How the results depend on the processing

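In Treg, Maf, Irf4 and Prdm1 kept their direction and their side of the threshold in every alternative run, with log2 changes of 0.79 to 0.98, 0.54 to 0.67 and 0.48 to 0.68 when 1 library was left out. Tbx21 was 0.50 (limma adjusted p = 0.12) without both replicates 3 and 0.56 (limma adjusted p = 0.171) without venetoclax replicates 1 and 3, so it no longer passed.

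Genes called in Tcon numbered 772, and 1364 with DESeq2, 1880 with the replicate block, 326 with the Y-linked covariate, 1443 without both replicates 3, 116 without venetoclax replicates 1 and 3, and 306 to 1244 with 1 library left out. Of the 9 regulators 4 passed in Tcon with the block, 2 without both replicates 3 (Bcl6 and Maf) and 0 to 1 with 1 library left out. In Treg 2164 genes were called, 1028 without both replicates 3, 614 without venetoclax replicates 1 and 3 and 1327 to 2198 with 1 library left out, which left 3 to 4 regulators past the threshold. For the difference between subsets 140 genes were called, 295 with DESeq2, 389 with the block, 4 without venetoclax replicates 1 and 3 and 43 to 149 with 1 code left out. Prdm1 made the count of regulators 1 with edgeR, with DESeq2, with the block and without both replicates 3, and 0 to 1 with 1 code left out. The cause of these shifts was not tested. Leaving out libraries also leaves fewer of them for the test.

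Signs turned only in comparisons in which the regulator concerned did not pass the threshold. Gata3 in Treg was 0.0305 with the Y-linked covariate and -0.0412 to 0.0941 with 1 library left out, and Bhlhe40 in the difference between subsets 0.0494 without both replicates 3 and -0.23 to 0.21 with 1 code left out. With 1 library or code left out, Tbx21 in Tcon ranged from -0.12 to 0.21, Id2 in Tcon from -0.0267 to 0.17, Irf4 in the difference from -0.14 to 0.23 and Id2 in the difference from -0.0399 to 0.17. In Treg the replicate numbers correlated at -0.039 to 0.414 between arms and were not taken to pair the libraries. The replicate block there gave 2467 called genes, with 9 Th1 genes higher and 1 lower (Ifng, limma adjusted p = 0.0263). Treg and Tcon levels in vehicle were apart for 8 to 9 regulators with 1 library left out.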
